A study of Mus musculus with 9 samples.

Results

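In cultured mouse sclerotome, 6 genes of the Sox family were read: Sox9 and Sox8 of the SoxE group, Sox5 and Sox6 of the SoxD group, and Sox4 and Sox11 of the SoxC group. The members were all probe sets whose annotation gave 1 of these symbols and no other, and they numbered 29 of the 45037 probe sets tested, or 6 of 18193 genes. Sox9 had 3 probe sets, Sox8 had 1, Sox5 had 7, Sox6 had 4, Sox4 had 8 and Sox11 had 6. The sclerotome is the part of the somite that builds the vertebrae and the intervertebral discs. Its cells were taken below the neural tube of E11.5 embryos, after the notochord had been removed, and were plated as micromass, a dense drop of mesenchymal cells that can turn into cartilage. RNA came from 3 untreated cultures, 3 cultures with BMP4 (50 ng/ml) and 3 cultures with TGF-β1 (5 ng/ml), after 8 hours of treatment. All 9 cultures shared a medium with serum, ascorbic acid and β-glycerophosphate, and the sources used here name no strain, no sex and no number of embryos per culture. The sample records place the factors after a night of culture and the culture protocol places them at flooding of the attached cells, so the age of the cultures at treatment is not settled.

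Sox proteins bind DNA through an HMG box. Sox9 is needed for cartilage to form and drives genes of the cartilage matrix such as Col2a1 and Acan. Sox5 and Sox6 lack an activation domain of their own, bind beside Sox9 and strengthen its action in chondrocytes, and Sox8 resembles Sox9 in sequence. Sox4 and Sox11 are found in many progenitor cells of the embryo, among them skeletal mesenchyme and neurons. BMPs signal through Smad1, Smad5 and Smad8, and TGF-β signals through Smad2 and Smad3.

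After BMP4, Sox9, Sox5 and Sox6 were higher than in untreated culture, by 3.36-fold, 2.35-fold and 2.17-fold at the probe set of each gene that varied most. At these probe sets the Sox6 call was made in 12 of 16 alternative limma fits, and those of Sox9 and Sox5 in all 16. With the mean of each gene's probe sets, the differences were 1.22, 0.62 and 1.06 log2 units (limma adjusted p = 0.000202, 0.0104 and 0.0256). Sox4 was lower at 3 of its 8 probe sets, by 1.38-fold to 1.54-fold. After TGF-β1, Sox8 alone among the 6 genes passed the test, 1.56-fold higher, and that call was lost in several other fits. Sox11 passed the test at 0 of 6 probe sets in each of the 3 comparisons.

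The stretches upstream of the genes that passed the test are shown so that the letters of known Smad and Sox motifs in them can be seen. They are the 250 bases before an annotated start site, from RefSeq on the build GRCm38.p6, and 5 of the 6 genes had such a window; Sox9 had none. The motifs searched on both strands were GGCGCC and CAGAC, known from Smad binding, and ACAAAG and AACAAT, known from Sox binding. Capitals mark a match on either strand, so a GTCTG in capitals is CAGAC on the opposite strand, and no matches overlapped each other in these windows. Each window is written 5′ to 3′ along the minus strand, which carries all 4 genes: Sox5 at chr6:143947107-143947356, Sox6 at chr7:116038745-116038994 (the outermost of its 6 start sites), Sox4 at chr13:28953700-28953949 and Sox8 at chr17:25570687-25570936.
Sox5: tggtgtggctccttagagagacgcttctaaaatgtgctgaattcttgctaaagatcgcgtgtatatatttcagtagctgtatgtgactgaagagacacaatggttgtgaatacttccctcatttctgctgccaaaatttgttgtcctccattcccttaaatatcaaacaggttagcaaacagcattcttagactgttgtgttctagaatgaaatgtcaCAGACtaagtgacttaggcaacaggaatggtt
Sox6: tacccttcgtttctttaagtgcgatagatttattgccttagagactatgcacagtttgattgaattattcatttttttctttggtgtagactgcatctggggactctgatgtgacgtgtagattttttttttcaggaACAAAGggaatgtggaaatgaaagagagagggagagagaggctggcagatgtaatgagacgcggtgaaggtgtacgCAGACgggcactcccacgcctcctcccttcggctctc
Sox4: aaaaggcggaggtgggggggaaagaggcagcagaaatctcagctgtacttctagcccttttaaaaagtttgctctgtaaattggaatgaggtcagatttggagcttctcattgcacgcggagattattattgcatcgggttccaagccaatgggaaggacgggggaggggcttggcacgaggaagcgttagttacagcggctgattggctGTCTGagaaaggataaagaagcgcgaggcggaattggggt
Sox8: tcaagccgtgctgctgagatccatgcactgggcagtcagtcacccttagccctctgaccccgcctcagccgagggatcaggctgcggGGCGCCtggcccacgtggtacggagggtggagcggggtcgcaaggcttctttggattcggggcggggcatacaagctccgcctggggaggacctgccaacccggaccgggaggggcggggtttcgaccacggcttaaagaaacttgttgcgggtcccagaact
CAGAC occurred 1 time in each of the Sox5, Sox6 and Sox4 windows, and 42.2% of 32817 windows of this length held it. ACAAAG occurred 1 time in the Sox6 window, against 16.5% of all windows, and GGCGCC occurred 1 time in the Sox8 window, against 9.59%. AACAAT was in none of these 4 windows and in 9.42% of all. The Sox11 window held 0 matches of the 4 motifs. Over its other start sites, Sox6 had ACAAAG at 4 of 5, and the windows of 1 gene are not independent of each other. CAGAC occurred 2 times at start site 2 of Sox6 and AACAAT 2 times at start site 5.

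Each deposited value is a log2 signal from which the median of that probe set over the 9 arrays had been taken away. A value of 1 therefore means 1 log2 unit above the middle array, and the expression level itself, its distance from background and an order of the 6 genes by level cannot be had. The SD of the values over all probe sets ran from 0.177 to 0.258 per array, and precision is bounded by having 3 arrays per group. Replicates were cultures set up on separate occasions, as the methods describe them. Differences were fitted with limma over all 9 arrays, p values were adjusted (Benjamini-Hochberg) across the 45037 probe sets, and a probe set was called at an adjusted p under 0.05. Errors of differences are standard errors (SE) of that fit. The 3 comparisons share their groups of arrays and are not independent of each other. RNA of whole cultures was measured, so fewer cells that hold a transcript and less of it per cell cannot be told apart.

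Sox9, the SoxE gene required for cartilage, was high in the BMP4 arrays at 2 of its 3 probe sets. Probe set 1424950_at read -0.33, 0 and -0.35 in the untreated arrays 1, 2 and 3, 1.18, 2.13 and 1.26 with BMP4 and -0.20, 0.012 and -0.42 with TGF-β1. All 3 BMP4 arrays lay above the other 6 arrays, and untreated and TGF-β1 arrays overlapped. The group means were -0.23 ± 0.20 for untreated, 1.52 ± 0.53 for BMP4 and -0.20 ± 0.22 for TGF-β1 (SD, n = 3 each). BMP4 was 1.75 ± 0.23 log2 units above untreated (SE; 3.36-fold; limma adjusted p = 0.00206), and TGF-β1 was lower than BMP4 by 3.31-fold (limma adjusted p = 0.00159). The difference of TGF-β1 from untreated was 0.023, with a 95% interval of -0.49 to 0.53 and a limma adjusted p of 0.972. That sign turned in some other fits, so no order is given between these 2 groups.

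The probe set 1451538_at, which was designed on the same target sequence, read 0, -0.088 and 0.025 in the untreated arrays 1, 2 and 3, 1.26, 1.86 and 1.40 with BMP4 and -0.20, -0.018 and -0.23 with TGF-β1. It was again separate in the BMP4 arrays, 1.53 ± 0.14 above untreated (SE; limma adjusted p = 0.000277), and its r with 1424950_at over the 9 arrays was 0.979. Both of these calls held in all 16 alternative limma fits, and the BMP4 difference of 1424950_at stayed between 1.45 and 1.92 when each array was left out in turn. The Sox9 probe set 1433889_at, from another target sequence, did not pass. It read -0.072, 0 and -0.036 in the untreated arrays 1, 2 and 3, 0.55, 0 and 0.46 with BMP4 and -0.035, 0.054 and -0.033 with TGF-β1. BMP4 replicates 1 and 3 stood above all other arrays there, while BMP4 replicate 2, the highest array at both other Sox9 probe sets, stood at the untreated level. The difference was 0.37 ± 0.13 (SE; limma adjusted p = 0.144), and without BMP4 replicate 2 it was 0.54 (limma adjusted p = 0.00914).

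Sox8, another SoxE gene, had the single probe set 1435438_at. It read -0.52, -0.17 and -0.56 in the untreated arrays 1, 2 and 3, 0.044, 0.22 and -0.0095 with BMP4 and 0, 0.22 and 0.47 with TGF-β1. The untreated arrays were the 3 lowest, and BMP4 and TGF-β1 arrays overlapped. TGF-β1 was 0.64 ± 0.14 log2 units above untreated (SE; 1.56-fold; limma adjusted p = 0.03). BMP4 was 0.50 ± 0.14 above untreated and did not pass (SE; 1.41-fold; limma adjusted p = 0.071). TGF-β1 and BMP4 differed by 0.14, with a 95% interval of -0.16 to 0.45 (limma adjusted p = 0.623), so a response to TGF-β1 that BMP4 lacks was not shown. The TGF-β1 call was lost without untreated replicate 1, untreated replicate 3, BMP4 replicate 1, TGF-β1 replicate 2 or TGF-β1 replicate 3, with limma adjusted p from 0.022 to 0.106 over the 9 arrays left out in turn. It was also lost when only these 2 groups were fitted (limma adjusted p = 0.073) and without the 3 arrays numbered 2 (limma adjusted p = 0.0582).

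Sox5, a SoxD partner of Sox9, was higher with BMP4 at 4 of its 7 probe sets. The most variable of them, 1423500_a_at, read 0, 0.018 and -0.24 in the untreated arrays 1, 2 and 3, 0.89, 1.60 and 1.00 with BMP4 and -0.28, -0.055 and -0.19 with TGF-β1. The lowest BMP4 array was well clear of the highest of the other 6 arrays, and BMP4 replicate 2 was the highest of all. BMP4 was 1.23 ± 0.17 above untreated (SE; 2.35-fold; limma adjusted p = 0.00242), and TGF-β1 was lower than BMP4 by 2.53-fold (limma adjusted p = 0.00113). TGF-β1 and untreated differed by -0.10, with a 95% interval of -0.47 to 0.27 (limma adjusted p = 0.795).

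The Sox5 probe set 1455535_at read -0.19, 0 and 0.063 in the untreated arrays 1, 2 and 3, 0.73, 1.53 and 0.86 with BMP4 and -0.40, -0.38 and -0.23 with TGF-β1. It was 1.08 ± 0.18 above untreated with BMP4 (SE; limma adjusted p = 0.00676), and its 3 TGF-β1 arrays were the lowest of the 9, with a difference from untreated of -0.29 that did not pass (limma adjusted p = 0.416). The other called probe sets, 1432189_a_at and 1440827_x_at, differed from untreated by 1.02 and 1.00 with BMP4 (limma adjusted p = 0.00815 and 0.00364). These 4 probe sets tracked each other, with r of 0.968 to 0.999 to 1423500_a_at, and all 4 BMP4 calls held in all 16 alternative limma fits. The remaining 3 probe sets moved little. Their ranges over the 9 arrays were 0.350 for 1459261_at, 0.595 for 1432190_at and 0.612 for 1452511_at, and their BMP4 differences were 0.095, -0.088 and 0.034. Of these, 1432190_at was designed on the same target sequence as the called 1432189_a_at, and its r with 1423500_a_at was -0.51. Whether these 3 probe sets read the same transcript as the 4 others cannot be told from centred values.

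Sox6, the other SoxD gene, was higher with BMP4 at 3 of its 4 probe sets, which came from 4 different target sequences. Probe set 1447655_x_at read 0, 0.20 and -0.34 in the untreated arrays 1, 2 and 3, 0.72, 1.72 and 0.77 with BMP4 and -0.47, -0.22 and -0.60 with TGF-β1. BMP4 replicate 2 was again the highest array, and replicate 2 was the highest array of the untreated and of the TGF-β1 group too. The BMP4 difference was 1.12 ± 0.25 (SE; 2.17-fold; limma adjusted p = 0.028). TGF-β1 was lower than BMP4 by 2.82-fold (limma adjusted p = 0.0054), and its difference from untreated was -0.38, with a 95% interval of -0.93 to 0.17 (limma adjusted p = 0.451).

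Probe set 1427677_a_at gave 1.15 ± 0.23 and 1434918_at gave 1.00 ± 0.22 for BMP4 against untreated (SE; limma adjusted p = 0.016 and 0.0254). The last one, 1426018_a_at, read -0.33, 0.017 and -0.28 in the untreated arrays 1, 2 and 3, 0.87, 1.44 and 0 with BMP4 and -0.37, 0.013 and 0 with TGF-β1. Here BMP4 replicate 3 stood at the level of the other groups, unlike replicates 1 and 2, and the difference of 0.97 ± 0.29 did not pass (SE; limma adjusted p = 0.0961). Without BMP4 replicate 3 it was 1.35 (limma adjusted p = 0.00573). All 3 BMP4 calls of Sox6 were lost without untreated replicate 1 or untreated replicate 3, with limma adjusted p of 0.0589 to 0.0933, and that of 1447655_x_at also without TGF-β1 replicate 1 (limma adjusted p = 0.0508). With only the BMP4 and untreated arrays fitted, 1434918_at and 1447655_x_at lost theirs too (limma adjusted p = 0.0659 and 0.0789). The calls of TGF-β1 against BMP4 at the same 3 probe sets held in all 16 alternative limma fits. With the replicate number as a block, 1426018_a_at was called lower with TGF-β1 than with BMP4 as well (limma adjusted p = 0.0447 against 0.111).

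**Figure D1:**
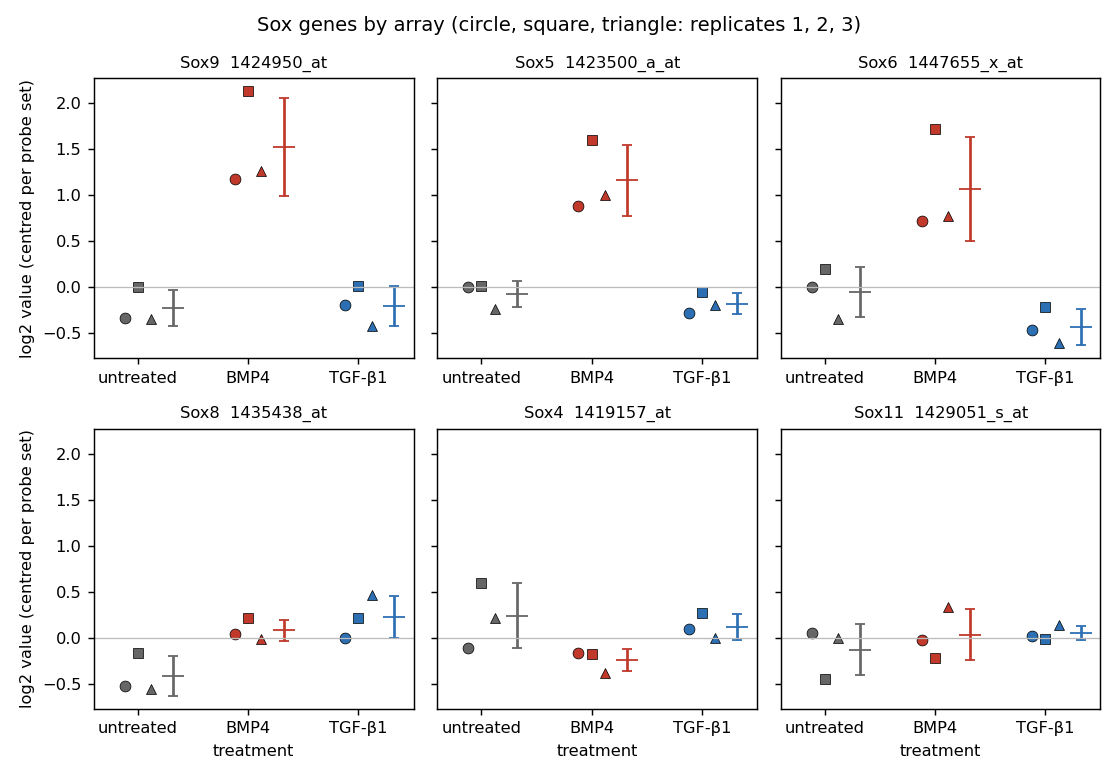
The centred log2 value (y axis) of the most variable probe set of each of the 6 genes in the 9 arrays (x axis, treatment), as circles, squares and triangles for replicates 1, 2 and 3, with bars for the mean ± SD of each group (n = 3). The BMP4 arrays of Sox9, Sox5 and Sox6 lie above all other arrays of that gene, Sox8 is lowest in the untreated arrays, and the groups of Sox11 overlap.

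Sox4, a SoxC gene, went the other way with BMP4. Probe set 1419155_a_at read 0.22, 0.33 and 0.17 in the untreated arrays 1, 2 and 3, -0.35, -0.49 and -0.31 with BMP4 and 0, 0.017 and -0.069 with TGF-β1. The groups did not overlap, with untreated highest, TGF-β1 in the middle and BMP4 lowest. BMP4 was -0.63 ± 0.08 from untreated, or 1.54-fold lower (SE; limma adjusted p = 0.00173), and this call held in all 16 alternative limma fits. TGF-β1 was 1.29-fold above BMP4 (limma adjusted p = 0.0215), and its difference from untreated was -0.26, with a 95% interval of -0.44 to -0.084 (limma adjusted p = 0.104), so the middle place of TGF-β1 was not shown against untreated.

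The Sox4 probe set 1419156_at read 0.17, 0.34 and 0.083 in the untreated arrays 1, 2 and 3, -0.28, -0.47 and -0.27 with BMP4 and 0, 0.069 and -0.016 with TGF-β1. It fell by 0.54 log2 units with BMP4 and 1449370_at fell by 0.46 (limma adjusted p = 0.00717 and 0.00953). Without the 3 arrays numbered 2 these 2 calls were lost (limma adjusted p = 0.0762 and 0.106). Both differences of TGF-β1 from BMP4, 0.36 and 0.33, passed as well (limma adjusted p = 0.0404 and 0.0393). Each of the 3 TGF-β1 against BMP4 calls of Sox4 was lost without BMP4 replicate 1, BMP4 replicate 2, TGF-β1 replicate 1 or TGF-β1 replicate 2, with limma adjusted p of up to 0.147 over the 9 arrays left out in turn. That of 1419156_at was lost also without untreated replicate 1, BMP4 replicate 3 or TGF-β1 replicate 3, and that of 1449370_at without untreated replicate 1, untreated replicate 3 or TGF-β1 replicate 3. All 3 were lost without the 3 arrays numbered 2 (limma adjusted p = 0.158 to 0.26), and that of 1449370_at with the untreated arrays left out of the fit (limma adjusted p = 0.063).

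The most variable Sox4 probe set, 1419157_at, read -0.10, 0.60 and 0.22 in the untreated arrays 1, 2 and 3, -0.17, -0.17 and -0.38 with BMP4 and 0.095, 0.28 and 0 with TGF-β1. Untreated replicate 2 was above the others there, and the BMP4 difference of -0.48 ± 0.16 did not pass (SE; limma adjusted p = 0.133). It shares 1 target sequence with the 3 called probe sets, so these 4 are not separate evidence. Of the rest, 1433575_at differed by -0.31 with BMP4 (limma adjusted p = 0.0645), and 1443778_at, 1455867_at and 1458332_x_at by -0.018, -0.048 and -0.055. All 8 differences lay below 0.

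Sox11, the other SoxC gene, did not pass the test with either factor. Probe set 1429051_s_at read 0.059, -0.45 and 0 in the untreated arrays 1, 2 and 3, -0.019, -0.21 and 0.33 with BMP4 and 0.026, -0.0076 and 0.14 with TGF-β1. The 3 groups overlapped, and untreated replicate 2 and BMP4 replicate 2 were the lowest of their groups. The BMP4 difference was 0.16 ± 0.16 and the TGF-β1 difference 0.18 ± 0.16 (SE), with 95% intervals of -0.19 to 0.52 and -0.17 to 0.54 (limma adjusted p = 0.702 and 0.589). Over the 6 probe sets the differences ran from 0.027 to 0.32 with BMP4 and from 0.081 to 0.26 with TGF-β1, all above 0. The nearest to a call was 1436790_a_at, at -0.13, -0.0075 and -0.21 in the untreated and 0, 0.13 and 0.16 in the BMP4 arrays. Those 2 groups did not overlap, and the limma adjusted p was 0.207. At an unadjusted p under 0.05, limma gave 4 of the 6 with BMP4, where 17.1% of all probe sets passed, and 0 with TGF-β1, where 18.7% did, and the unequal variance test named in the methods gave 0 in both comparisons.

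**Figure D2:**
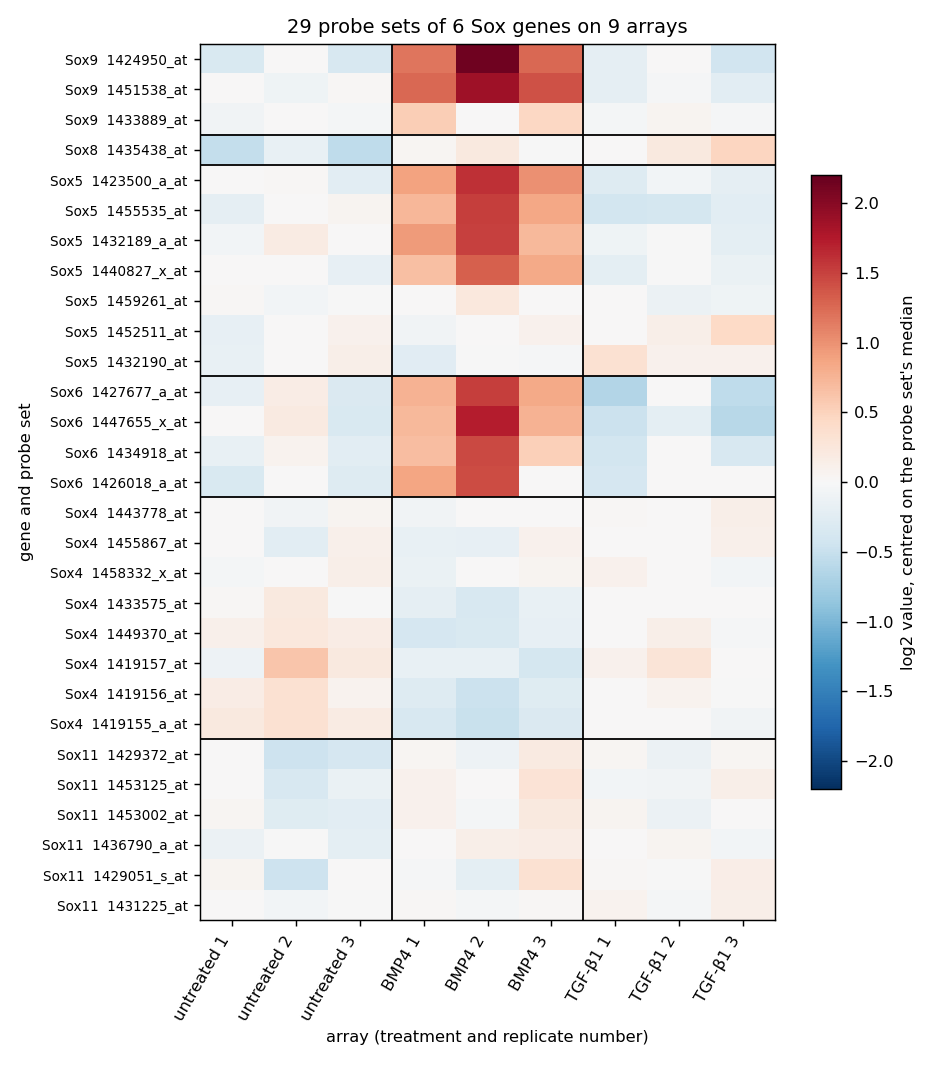
Centred log2 values (colour, red above and blue below the median of the probe set) of all 29 probe sets (rows, grouped by gene) in the 9 arrays (columns, grouped by treatment). The columns of BMP4 replicates 1 to 3 are red in 2 rows of Sox9, 4 of Sox5 and most of Sox6, and blue in the lower rows of Sox4.

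Over the 29 probe sets, 12 were called between BMP4 and untreated, 9 higher and 3 lower. That is 41.4%, where 5.44% of all probe sets were called, 2.31% higher and 3.13% lower. The groups did not overlap at 16 of the 29, 11 higher and 5 lower, against 20.0% of all probe sets, and the median difference of the 29 was 0.24 against 0.0012 for all. Between TGF-β1 and untreated, 1 of 29 was called, or 3.45%, which is no more than the 4.43% of all probe sets (1.83% higher and 2.60% lower). The groups did not overlap at 4 of 29, against 21.8%, and 2 of 29 had an unadjusted p under 0.05, against 18.7% of all. Between TGF-β1 and BMP4, 12 were called, 3 higher and 9 lower, against 6.91% of all (3.41% higher and 3.49% lower). The groups did not overlap at 16 of 29 in that comparison, against 25.5%. Probe sets of 1 gene share their transcripts and are not replicates, so these counts describe 6 genes.

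**Figure D3:**
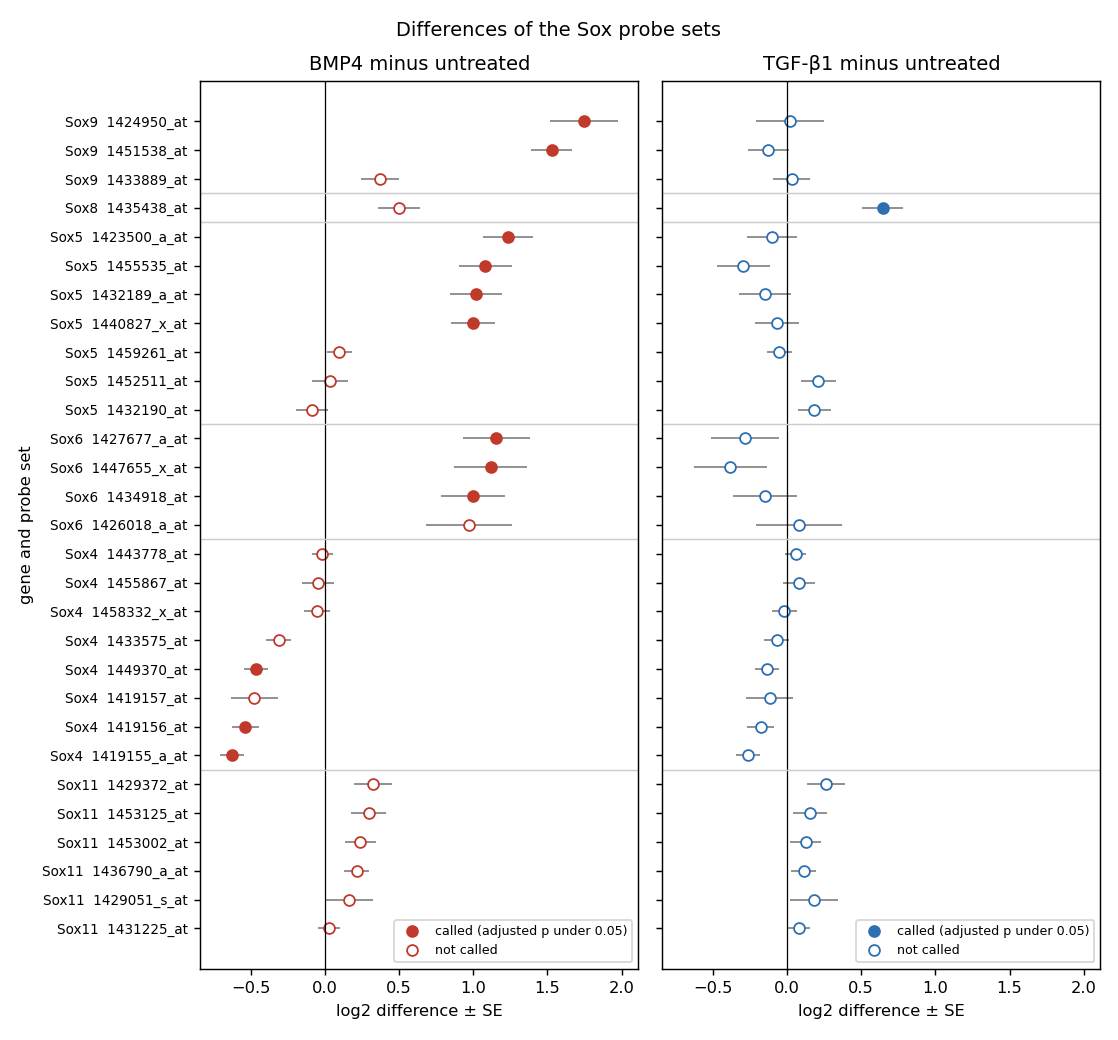
Log2 difference from untreated ± SE (x axis) of the 29 probe sets (rows, grouped by gene) for BMP4 (left panel) and TGF-β1 (right panel), with filled circles for an adjusted p under 0.05. In the BMP4 panel 9 filled circles lie right of 0 and 3, all of Sox4, left of it, while the TGF-β1 panel holds 1, that of Sox8.

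Replicate 2 stood apart from replicates 1 and 3 in several of these genes. With BMP4, replicate 2 was above the mean of the other 2 arrays by 0.91 at the most variable probe set of Sox9, by 0.66 at that of Sox5 and by 0.98 at that of Sox6. In the untreated group the same gaps were 0.34, 0.14 and 0.37, and with TGF-β1 they were 0.32, 0.18 and 0.32. Sox11 ran the other way, with -0.48 in the untreated, -0.37 in the BMP4 and -0.090 in the TGF-β1 group. Without the 3 arrays numbered 2, the BMP4 differences of Sox9, Sox5 and Sox6 were 1.56, 1.06 and 0.91 (limma adjusted p = 0.00097, 0.00476 and 0.0155). The part of the replicate number in these values was not tested beyond that.

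Across the 9 arrays, the most variable probe sets of Sox9 and Sox5 had an r of 0.988, those of Sox5 and Sox6 0.972, and those of Sox9 and Sox6 0.960. Sox8 had 0.315 with Sox9, Sox4 had -0.57 and Sox11 -0.058. Sox4 and Sox11 had -0.70, with Sox4 read at 1419157_at, a probe set that was not called with BMP4. These points share treatment groups and repeats, and the values are a description. Agreement within a gene was highest in Sox6, where the 6 pairs of probe sets had a median r of 0.951 (0.851 to 0.986). It was lower in Sox9 (median 0.626, from 0.559 to 0.979), Sox11 (0.587, from -0.16 to 0.968), Sox5 (0.417, from -0.51 to 0.999) and Sox4 (0.298, from -0.25 to 0.986).

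Genes whose values ran most like those of each Sox gene were sought by Pearson's r over the 9 arrays among 2109 genes that spanned at least 1 log2 unit. For Sox9 they were Klf4, a zinc finger transcription factor (r = 0.994), Ctnnbip1, which binds β-catenin (0.993), Mbp, known from myelin (0.987), Vps54 (0.985), Wif1, a secreted Wnt inhibitor (0.983), and Bmper, a secreted BMP-binding protein (0.983). Klf4 also led for Sox5 (0.996), followed by Ptch1, the hedgehog receptor (0.991), Mbp (0.990), Chst11, a chondroitin sulfotransferase (0.989), Wif1 (0.987) and Wwp2, a ubiquitin ligase (0.984). Sox6 had Emb (0.985), Susd5 (0.985), Fzd9, a Wnt receptor (0.983), Bpnt1 (0.981), Mbp (0.979) and Ptch1 (0.979). Sox4 was read at 1419157_at, which was not called with BMP4 and had an r of 0.757 to 0.790 with the Sox4 probe sets that were. For Sox4 the values were lower: Gatm (0.943), Shc1 (0.940), Rnd3 (0.940), Gstt2 (0.937), Kat2b (0.930) and Pkia (0.926), and BMP4 calls were made for 0 of these 6 genes. For Sox11 they were lower still, from Wnt4 (0.901), Inhba (0.863), Gpc6 (0.860) and Nlk (0.857) to the smooth muscle actins Acta2 (0.847) and Actg2 (0.833).

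Of 14 other Sox genes on the array, read at 1 probe set each, 2 were called higher with BMP4, where 7.96% of all genes were called (3.45% higher and 4.51% lower). Sox2, a SoxB gene of neural and other progenitors, read -0.12, -1.03 and -0.53 in the untreated arrays 1, 2 and 3, 1.07, 0.73 and 0.82 with BMP4 and 0.073, -0.29 and 0 with TGF-β1. The BMP4 arrays were the 3 highest, 1.44 ± 0.20 above untreated (SE; limma adjusted p = 0.00287). Sox13, the SoxD gene beside Sox5 and Sox6, read -0.13, -0.39 and -0.14 in the untreated arrays 1, 2 and 3, 0.23, 0.89 and 0.46 with BMP4 and 0, -0.44 and 0 with TGF-β1. It too was highest in the 3 BMP4 arrays, 0.75 ± 0.17 above untreated (SE; limma adjusted p = 0.0354). The Sox13 call was lost without any 1 of the 3 untreated arrays, BMP4 replicate 2, BMP4 replicate 3, TGF-β1 replicate 1 or TGF-β1 replicate 3 (limma adjusted p = 0.0525 to 0.107), while that of Sox2 passed with each array left out. Both genes were called lower with TGF-β1 than with BMP4, at -0.95 and -0.67 (limma adjusted p = 0.0191 and 0.0466). Sox2 lost that call without BMP4 replicate 1, TGF-β1 replicate 2 or TGF-β1 replicate 3 (limma adjusted p = 0.0564 to 0.084). Sox13 lost it on leaving out any array other than BMP4 replicate 1 and untreated replicate 2 (limma adjusted p = 0.0651 to 0.143). TGF-β1 gave 0 calls among the 14 with limma (3 at an unadjusted p under 0.05), where 6.75% of all genes were called (2.54% higher and 4.21% lower). With the replicate number as a block, Sox2 passed at 0.49 (limma adjusted p = 0.0342). Sox10, the third SoxE gene, known from neural crest and glia, differed by -0.15 with BMP4 and -0.037 with TGF-β1, and Sox12, the third SoxC gene, by 0.059 and -0.057, none of them called. The median difference of the 14 was 0.036 with BMP4 and 0.052 with TGF-β1, against 0.0026 and 0.0096 for all genes.

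Genes of the cartilage matrix and of chondrocytes, many of them known targets of Sox9, were read beside the Sox genes. With BMP4, 7 of 27 measured genes were called higher and 0 lower, where 3.45% of all genes were higher and 4.51% lower. Of the 27, 26 lay above 0, and their median difference was 0.70, against 0.0026 for all genes. The largest was Papss2, an enzyme of sulfate activation for proteoglycans, at 3.22 ± 0.39 (SE; limma adjusted p = 0.00131). Next came Wwp2 at 2.51, the FGF receptor Fgfr3 at 2.33 and Acan, which encodes aggrecan, at 1.89 (limma adjusted p = 0.000162, 0.000605 and 0.00131). Acan read -0.36, 0 and -0.56 in the untreated arrays 1, 2 and 3, 1.35, 2.03 and 1.38 with BMP4 and -0.14, 0.48 and -0.15 with TGF-β1, with the BMP4 arrays apart from the rest. With TGF-β1, Acan was 0.37 and Papss2 1.01 above untreated, and neither passed (limma adjusted p = 0.419 and 0.192). Under the replicate block both were called (limma adjusted p = 0.0253 and 0.00764). They were among 7 of the 27 genes called higher with TGF-β1 under the block, beside 6 called lower. Col2a1, the main cartilage collagen, read -0.21, 0.13 and -0.26 in the untreated arrays 1, 2 and 3, 0, 0.58 and 0.089 with BMP4 and -0.39, 0.18 and -0.32 with TGF-β1. Its groups overlapped, and its differences of 0.33 ± 0.19 with BMP4 and -0.069 ± 0.19 with TGF-β1 did not pass (SE; limma adjusted p = 0.438 and 0.885). Under the replicate block the BMP4 difference of Col2a1 from untreated was called (limma adjusted p = 0.0273). Between TGF-β1 and BMP4 Col2a1 differed by -0.40, which was called under the replicate block (limma adjusted p = 0.00975) and not without it (0.276).

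With TGF-β1, at the most variable probe set of each gene, the called cartilage genes were 2, both higher. They were Chad, a matrix protein that binds cells and collagen, at 2.64 ± 0.39, and Ucma, a small secreted protein, at 0.65 ± 0.13 (SE; limma adjusted p = 0.00589 and 0.019). These 2 of 27 stand against 6.75% of all genes called with TGF-β1, a share near theirs. Neither Chad nor Ucma was called with BMP4. Fgfr3 was lower with TGF-β1 than in untreated culture at both of its probe sets, without overlap of the groups. At the most variable one the difference of -0.95 did not pass (limma adjusted p = 0.0558). It passed with only the 2 groups fitted and under the replicate block (limma adjusted p = 0.00779 and 0.032). At the other Fgfr3 probe set the difference of -1.09 was called (limma adjusted p = 0.00622). The median of the 27 was -0.069 with TGF-β1, against 0.0096 for all genes. With quantile normalisation 2 were called higher and 2 lower with TGF-β1, and under the replicate block 7 were higher and 6 lower. The shares of all genes given here are from the fit without the block, which raised the calls over all probe sets (counted in the last section). Without untreated replicate 2, TGF-β1 replicate 1 or TGF-β1 replicate 2 the count was 1, and without BMP4 replicate 2 it was 4. Between TGF-β1 and BMP4, 6 of 27 were called lower and 0 higher, where 10.1% of all genes were called (4.73% higher and 5.38% lower). With the block 19 were lower and 1 higher, and the calls over all probe sets rose in this comparison as well.

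**Figure D4:**
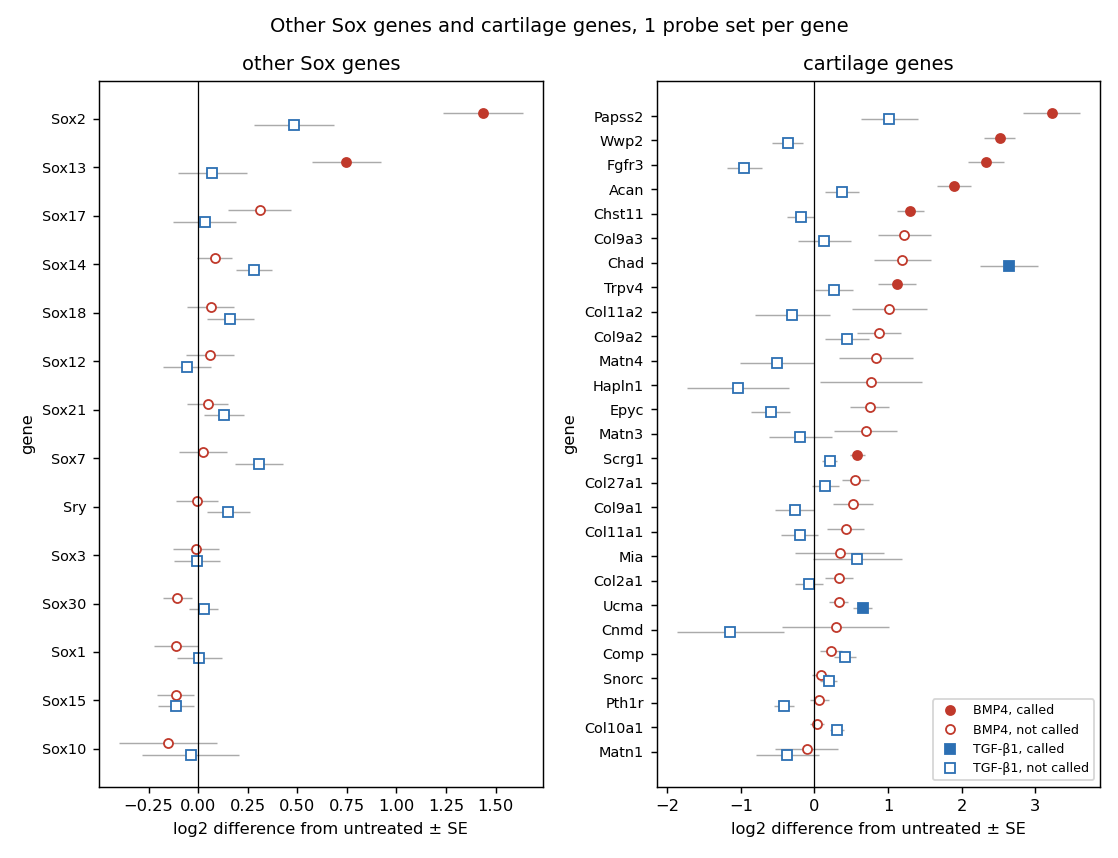
Log2 difference from untreated ± SE (x axis) of 14 other Sox genes (left panel) and 27 cartilage genes (right panel), 1 probe set per gene, for BMP4 (red circles) and TGF-β1 (blue squares), filled where the adjusted p was under 0.05. Sox2 and Sox13 stand out on the left, and on the right the BMP4 circles lie right of 0 for 26 of 27 genes while the TGF-β1 squares spread to both sides.

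Partners and regulators of Sox9, such as transcription factors and cofactors known to act with or on it, formed a list of 28 measured genes. With BMP4, 1 was called higher and 5 lower, against 3.45% and 4.51% of all genes, and with TGF-β1 1 was higher and 4 lower, against 2.54% and 4.21%. Their median differences were -0.19 and -0.088. The higher one was Gli1, a hedgehog effector (0.97). The lower ones were Smad3, the TGF-β signal carrier (-1.18), Pax1, a sclerotome factor (-1.17), Scx, a tendon factor (-1.11), Maf (-0.98) and the hedgehog effector Gli2 (-0.71), with limma adjusted p of 0.000298 to 0.0241. With TGF-β1, Scx was the higher one, by 2.01, and the lower ones were Maf (-2.24), the chromatin cofactor Arid5b (-0.90), Ppargc1a (-0.62) and Smad3 (-0.61), with limma adjusted p of 0.000184 to 0.0189. Scx read 0, 0 and -0.20 in the untreated arrays 1, 2 and 3, -0.83, -1.51 and -1.18 with BMP4 and 1.89, 2.06 and 1.88 with TGF-β1, with the 3 groups apart. At the other Scx probe set BMP4 and untreated overlapped, and the BMP4 difference of -0.14 did not pass (limma adjusted p = 0.744), while TGF-β1 was 0.88 above untreated (limma adjusted p = 0.0121). Maf read 0.75, 1.60 and 0.60 in the untreated arrays 1, 2 and 3, 0.0078, 0 and 0 with BMP4 and -1.21, -1.21 and -1.34 with TGF-β1, with TGF-β1 lowest, BMP4 in the middle and untreated highest. Its BMP4 call at this probe set was lost with only the 2 groups fitted (limma adjusted p = 0.0764). Of the 6 Maf probe sets, 4 were called lower with BMP4, 4 lower with TGF-β1 and 3 lower with TGF-β1 than with BMP4. Between TGF-β1 and BMP4, 3 of the list were higher and 3 lower, against 4.73% and 5.38% of all genes. Under the replicate block these became 8 higher and 4 lower. The block raised the calls over all probe sets too, as counted in the last section.

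Known early targets of each factor were read in the same way. Over all genes, 3.45% were called higher with BMP4 and 2.54% with TGF-β1. Of 7 BMP target genes, 6 were called higher with BMP4, among them Nog (3.36), Bambi (1.94) and Smad6 (1.79), and 1 with TGF-β1, Smad7 (0.41). Of 6 measured TGF-β target genes, 5 were called higher with TGF-β1, among them Pmepa1 (1.99) and Lox (1.65), and 1 with BMP4, again Smad7, which is in both lists (1.12).

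Markers of the labelled tissue and of cells that a dissection could carry along are given beside these results, since several of the Sox genes are known from neurons, glia, notochord and muscle. Over all genes, 3.45% were called higher and 4.51% lower with BMP4, and 2.54% higher and 4.21% lower with TGF-β1. With BMP4, 7 of 14 sclerotome genes were called lower, among them Meox1 (-1.61), Uncx (-1.38), Pax1 (-1.17) and Foxd1 (-0.85), and with TGF-β1 Foxd1 was (-0.44). Of the 14, 3 lay above 0 with BMP4 (up to 0.40) and 11 below. With TGF-β1, 1 call of 14, here and among the neural genes below, is near the 6.75% of all genes called. The sclerotome mean of centred values ran from -0.0019 to 0.42 in the untreated, from -0.37 to -0.36 in the BMP4 and from -0.029 to 0.13 in the TGF-β1 arrays. The arrays with the highest Sox9, Sox5 and Sox6 thus had the lowest sclerotome mean. Neural genes gave 2 higher (Sox2 and Map2) and 2 lower (Nefl and Nes) of 14 with BMP4, and 0 higher and 1 lower (Nefl) with TGF-β1. Their mean ran from -0.16 to 0.10 in the untreated, -0.22 to 0.23 in the BMP4 and -0.47 to -0.012 in the TGF-β1 arrays. The 7 neural crest and glia genes gave 1 call with BMP4, Fabp7 (1.17 higher), and 0 with TGF-β1 (limma; 2 at an unadjusted p under 0.05). Their mean was 0.020 to 0.13 in the untreated, 0.18 to 0.28 in the BMP4 and -0.42 to 0.050 in the TGF-β1 arrays, so it was highest in the BMP4 arrays. Most of the list did not rise, since with BMP4 3 of the 7 genes lay above 0 and 4 below. The median difference of the 7 was -0.14 with BMP4 and -0.22 with TGF-β1.

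Of 7 notochord genes, Krt19 was called higher (1.61) and Krt18 lower (-1.29) with BMP4, and Krt19 higher with TGF-β1 (1.68). Over all genes, 7.96% were called with BMP4 and 6.75% with TGF-β1. The notochord mean was -0.26 to -0.17 in the untreated, -0.13 to -0.018 in the BMP4 and -0.099 to 0.33 in the TGF-β1 arrays. The median difference of the 7 genes was 0.010 with BMP4 and 0.044 with TGF-β1, with 4 above 0 and 3 below in each. Of 11 skeletal muscle genes, Myf5 was called higher with BMP4 (0.83) and Acta1 (-0.41) and Myh3 (-0.41) lower with TGF-β1. All 11 lay below 0 with TGF-β1, 7 of them at an unadjusted p under 0.05 (limma), against 18.7% of all probe sets. Under the replicate block, which raised the calls over all probe sets too (counted in the last section), 6 of the 11 were called lower. The muscle mean was 0.045 to 0.20 in the untreated, 0.026 to 0.068 in the BMP4 and -0.23 to -0.13 in the TGF-β1 arrays. The 10 endothelial genes gave 0 limma calls with either factor (1 and 0 at an unadjusted p under 0.05), and their mean ran from -0.080 to 0.12 over all 9 arrays. Because values are centred, whether a defining marker of any of these cells was at background cannot be read. The part of these lists in the Sox results was not tested.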

How the data were processed

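Total RNA (50 ng per culture) of 9 cultures was amplified over 2 cycles and hybridised by the authors to Affymetrix mouse genome arrays, which read transcripts at their 3′ part after oligo dT priming. The authors subtracted background and normalised with RMA in GeneSpring; no version is stated in the sources. The deposited log2 values were then found to be centred, with a median of 0 over the 9 arrays at all 45101 probe sets. No filter on low signal was therefore possible. Of these, 64 Affymetrix controls were left out. Probe sets were named by GEO's platform annotation, with 34945 carrying 1 symbol, 932 several and 9160 none; 34741 were matched to RefSeq by Entrez identifier, and 0 symbols changed. Groups and replicate numbers came from the sample titles.

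A linear model of the 3 groups was fitted with limma 3.58.1 in R 4.3.3 (6 residual and 4.01 prior degrees of freedom, median residual SD 0.129) to 45037 probe sets, with two-sided p values. Where 1 probe set stood for a gene, it was the one with the largest variance over the 9 arrays. Fits were tested on simulated data, and Python 3.11.15 with matplotlib 3.10.9 drew the plots. Alternatives were the replicate number as a block, only the 2 groups compared, each array left out in turn, the 3 arrays numbered 2 left out, a robust variance model, arrays centred again, quantile normalisation, the more variable part of the probe sets, the mean of a gene's probe sets, and the unequal variance test of the study's methods.

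The members, gene lists and tests were chosen with earlier results of these data known. Named were all Sox probe sets, up to 4 called genes of each other list with the largest differences from untreated, Col2a1, Acan, Sox10, Sox2, Maf and Scx in any case, and the 6 genes most like each Sox gene except Sox8. Gli1, Gli2, Sox12 and, for TGF-β1, Smad3 were added after their values were seen.

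Same-numbered arrays of TGF-β1 and untreated deviated together from their group means (r = 0.137, 0.494 and 0.277 for replicates 1, 2 and 3), as did those of TGF-β1 and BMP4 (0.290, 0.497 and 0.377). The numbers thus paired these arrays by the rule used, that every r be above 0.1. With untreated arrays of another number, the highest r of TGF-β1 replicates 1, 2 and 3 was 0.062, -0.30 and 0.20. With BMP4 arrays of another number it was -0.037, -0.24 and 0.0034. The labels do not say that a number marks a repeat of the experiment, although the study set the experiment up in separate repeats.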

Additional observations from a re-analysis of the deposited data

How the results depend on the processing

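Calls of the 29 Sox probe sets with BMP4 against untreated numbered 12, 10 with only these 2 groups fitted, and 9 to 13 when each array was left out in turn; 12 were called between TGF-β1 and BMP4, 11 with only these 2 groups, 10 without the arrays numbered 2 or among the more variable probe sets, and 9 to 12 on leaving out an array. The 1 call of TGF-β1 against untreated, that of Sox8, became 0 with only these 2 groups fitted, without the 3 arrays numbered 2, and on leaving out 5 of the 9 arrays (0 to 1 calls). With the methods' unequal variance test and Benjamini-Hochberg adjustment the Sox calls were 0 in all 3 comparisons. At an unadjusted p under 0.05 and a change of at least 2-fold, that test gave 6 Sox probe sets higher with BMP4, 0 with TGF-β1 and 9 lower with TGF-β1 than with BMP4, among 433, 253 and 543 probe sets.

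Over all probe sets, calls of BMP4 against untreated went from 2449 to 1617 with only the 2 groups fitted, 1200 without the arrays numbered 2, 0 with the methods' test and 1431 to 2262 on leaving out an array. Those of TGF-β1 against untreated went from 1993 to 1172, 888, 0 and 867 to 2053. Those of TGF-β1 against BMP4 went from 3110 to 1819 without the arrays numbered 2, 11 with the methods' test and 1877 to 3330 on leaving out an array. With the replicate block the 3 counts were 4069, 4029 and 5252. BMP4 and untreated did not meet the pairing rule, because the r of replicate 1 was not above 0.1 (r = -0.049, 0.502 and 0.239 for replicates 1, 2 and 3). That does not show that these arrays were unpaired, since the study set the experiment up in separate repeats. In this comparison the block moved the Sox calls from 12 to 15. It added Sox8 (limma adjusted p = 0.0369) and 1 probe set each of Sox6 and Sox4 (1426018_a_at, 0.0378; 1419157_at, 0.0495). In the 2 comparisons that met the rule the block changed no Sox call other than the one given for Sox6.

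The small difference of TGF-β1 from untreated in Sox9 turned to -0.024 with the mean of its probe sets, and it ran from -0.085 to 0.14 on leaving out an array (below 0 without untreated replicate 1, at -0.029, untreated replicate 3, at -0.039, and TGF-β1 replicate 2). That of Sox4 ran from -0.29 to 0.066, above 0 without untreated replicate 2. The difference of TGF-β1 from BMP4 in Sox11 turned to -0.057 with the mean of its probe sets, -0.075 without the arrays numbered 2 and -0.021 with quantile normalisation, and ran from -0.11 to 0.17 on leaving out an array (-0.0073 without BMP4 replicate 1, -0.024 without TGF-β1 replicate 3). All of these were uncalled, and the cause was not tested. With the mean of its 8 probe sets, Sox4 was called lower with BMP4 at -0.32 (limma adjusted p = 0.0287). Calls of other Sox genes with BMP4 ranged from 1 to 2, and those of TGF-β1 against BMP4 from 0 to 2, on leaving out an array. Cartilage calls with BMP4 went from 7 to 18 with the block, Col2a1 among them (limma adjusted p = 0.0273). Those with TGF-β1 went from 2 to 13 with the block, 4 with only the 2 groups, without the arrays numbered 2 or with quantile normalisation, and 1 to 4 on leaving out an array. Those of TGF-β1 against BMP4 went from 6 to 20 with the block, 15 without the arrays numbered 2, 10 with quantile normalisation and 11 among the more variable probe sets. Calls of TGF-β1 against BMP4 among Sox9 partners went from 6 to 12 with the block. With the methods' test all these lists had 0 calls. No scaling moved the median of all differences past 0.013 log2 units. Signal over background is unknown for centred values, and 3 arrays per group limit every call.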
